A study of Rattus norvegicus with 12 samples.

Results

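The genes that make, load, take up and break down γ-aminobutyric acid (GABA), together with the subunits of its metabotropic receptor, were followed in the dopamine-depleted rat striatum. They are Gad1, Gad2, Slc32a1, Slc6a11, Abat, Gabbr1 and Gabbr2, and every non-control probe that carries one of these names was taken, which gave 10 probes of 41012 and 7 genes of 35623. Gad1 is read by 3 probes, Gabbr1 by 2 and the other genes by 1 each. All 7 genes passed the filter on dim probes and were among the 20469 genes tested.

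GABA is the transmitter of the striatal projection neurons and of most striatal interneurons. It is made from glutamate by the glutamic acid decarboxylases, packed into vesicles by a vesicular transporter, cleared from the synapse by plasma membrane carriers of neurons and astrocytes and degraded in mitochondria by a transaminase. Loss of dopamine is known to shift the activity of the projection neurons, and glutamic acid decarboxylase messenger RNA is a common readout of that shift.

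RNA from the striatum of 12 male rats was measured with Agilent arrays in a single colour, giving each rat an array of its own, in 4 groups of 3. Every rat had received 9 µg of 6-OHDA, a toxin of dopamine neurons, in the left substantia nigra, so all groups share the lesion and no unlesioned striatum is compared here. The 6-OHDA group had no further treatment. The HFS group had 5 days of high-frequency stimulation of the subthalamic nucleus on the lesioned side (130 Hz, pulses of 80 µs, 60 µA). For 19 days the DOPA group was injected 2 times daily with L-DOPA (25 mg/kg) and benserazide (12.5 mg/kg). The DOPA/HFS group had both, with the stimulation in the last days of the drug treatment. In the stimulated groups an electrode had been implanted, so the effects of stimulation and of the implant cannot be told apart. No group is labelled as injected with vehicle, so the effects of L-DOPA, of benserazide and of the injections cannot be told apart either. The comparisons ask whether each treatment moved the GABA genes away from their level in the untreated lesion, and whether the treatments interact.

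Signals are given as log2 of the background-corrected spot intensity after quantile normalization between arrays. A probe is well above background where the scanner software flagged it so, and between 50.5% and 63.2% of the spots on an array were. The replicate number equals the slide, and each slide held 1 array of every group. Each group had its own place on the slides, and effects of place and treatment cannot be told apart. On all arrays the 10 measured markers of striatal projection neurons were well above background. Their mean log2 signal lay between 13.79 and 14.20, except on DOPA/HFS replicate 3. There Rgs9 had no value, and the mean of the others was 13.70. Choroid plexus markers summed to a signal of 4450 to 89460 on the HFS arrays and 310 to 728.5 on the 6-OHDA arrays. The sum was 376.7 to 16530 on the DOPA arrays and 268.8 to 1022 on the DOPA/HFS arrays. On DOPA/HFS replicate 3 (268.8) it lacked Folr1, which had no value there. The part of the choroid plexus markers in any result below was not tested. Several arrays stood apart. 6-OHDA replicate 2 was the lowest of all arrays for 20.9% of the genes and the highest for 20.5%. DOPA/HFS replicate 3 had 4175 spots marked as outliers, against 2 to 25 elsewhere. On DOPA/HFS replicate 1 the log2 signal of Trh was 7.82, near the 8.00 to 8.07 of the 6-OHDA arrays and below the 10.61 to 10.77 of the DOPA arrays.

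No gene of the 7 was called in any comparison by limma, where a call needed a fold over 1.2 or under 0.8 and a p under 0.1 after Benjamini-Hochberg adjustment. The lowest adjusted p among them was 0.916, and 0.558 over all alternatives tried. The same rule called 0% of all genes in HFS vs 6-OHDA, 0.00489% in DOPA vs 6-OHDA, 0% in DOPA/HFS vs 6-OHDA, 0% in the interaction, 0% in the stimulation comparison of 6 arrays against 6 (the HFS main effect) and 0.00489% in the L-DOPA comparison of 6 against 6. At an unadjusted p under 0.05 the number of GABA genes was 0 of 7 in HFS vs 6-OHDA (2.34% of all genes), 0 in DOPA vs 6-OHDA (2.59%), 0 in DOPA/HFS vs 6-OHDA (2.76%), 0 in the interaction (1.98%), 0 in the stimulation comparison (4.34%) and 1, Gad1, in the L-DOPA comparison (2.73%). A p that misses the threshold does not show that a level stayed the same, so 95% intervals are given with most of the differences below. In this tissue, fewer cells of a type and less RNA per cell cannot be told apart.

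**Figure D1:**
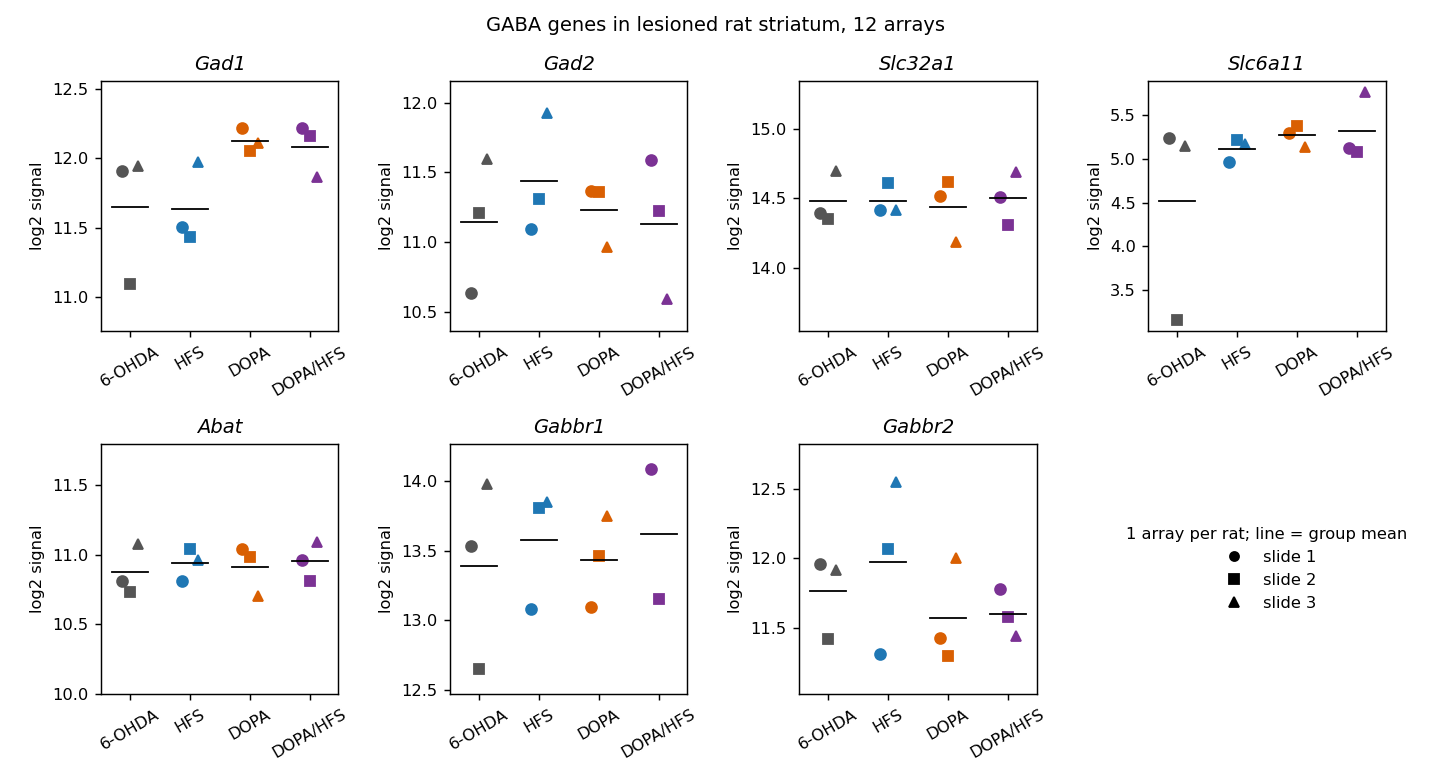
Log2 signal of each GABA gene (vertical axes, 1 panel per gene, brightest probe) on the arrays of the 4 groups (horizontal axes). Symbols give the slide, and lines the group mean. Gad1 on the 3 DOPA arrays lies above the 3 6-OHDA arrays, while Slc32a1 and Abat stay within 0.51 and 0.39 over all arrays. For Slc6a11 the vertical axis spans a wider range.

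Gad1 encodes the decarboxylase that supplies most of the cell's GABA, and Gad2 the second isoform, which is bound to synaptic vesicle membranes. The sequences before their start sites are shown because these paralogs were the pair whose levels were compared under L-DOPA. They are the 250 bases before the start in RefSeq's GRCr8 annotation of the rat, plus strand, at chr3:75777202-75777451 for Gad1 and chr17:89671468-89671717 for Gad2, 5′ to 3′, with TATAAA, the letters of a basal promoter element, in capitals.
Gad1: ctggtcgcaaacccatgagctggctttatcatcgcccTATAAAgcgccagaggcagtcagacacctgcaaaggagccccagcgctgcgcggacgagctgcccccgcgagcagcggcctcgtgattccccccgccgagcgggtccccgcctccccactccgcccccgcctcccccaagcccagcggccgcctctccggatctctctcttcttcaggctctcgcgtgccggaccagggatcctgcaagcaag
Gad2: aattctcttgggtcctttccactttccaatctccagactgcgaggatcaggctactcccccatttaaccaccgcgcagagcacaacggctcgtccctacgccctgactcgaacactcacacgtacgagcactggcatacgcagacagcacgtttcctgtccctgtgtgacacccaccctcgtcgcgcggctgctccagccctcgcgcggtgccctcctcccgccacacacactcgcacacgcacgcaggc
Of the GABA genes, 6 have a promoter in this table. On either strand, the letters TGACGTCA, a full cAMP response element, were in none of the 6 and in 1.59% of 33469 promoters of the same length. The letters TGACTCA, an AP-1 site, were in none of the 6 and in 4.05% of all promoters. TATAAA was in that of Gad1 alone and in 12.9% of all. G and C made up 68.4% of the Gad1 sequence and 62% of the Gad2 sequence, against a median of 51.2%. These are descriptions of letters in a window and say nothing about which factors act on the genes.

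Gad1 was higher on the arrays of L-DOPA-treated rats than on the others at an unadjusted p under 0.05, and did not pass the adjustment over all genes. On its brightest probe, A_44_P536310, the log2 signal was 11.91, 11.09 and 11.94 on the 6-OHDA arrays and 12.21, 12.05 and 12.11 on the DOPA arrays. The stimulated rats gave 11.51, 11.43 and 11.97 in HFS and 12.22, 12.16 and 11.86 in DOPA/HFS. All DOPA arrays lay above all 6-OHDA arrays, and DOPA/HFS overlapped with both groups that had no L-DOPA, through replicate 3. Gad1 was thus 1 of the 7 genes, and the only one, whose DOPA arrays did not overlap with 6-OHDA, a pattern shown by 6.17% of all genes. Of the 7 genes, 0 separated in this way in HFS (5.14% of all genes) and 0 in DOPA/HFS (4.19%).

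The log2 fold change of Gad1 in DOPA was 0.48 (standard error 0.24, 95% interval -0.04 to 0.99, limma adjusted p = 1), a fold of 1.39. The exact two-sided permutation test gave p = 0.1, and groups of 3 cannot give a lower one. For DOPA/HFS the log2 fold change was 0.43 (interval -0.08 to 0.95) and in HFS -0.01 (interval -0.53 to 0.51). These 3 comparisons share the 6-OHDA arrays. With the 6 L-DOPA arrays set against the 6 others (the L-DOPA main effect), the difference was 0.46 (standard error 0.17, interval 0.09 to 0.83, unadjusted p = 0.0184, adjusted p = 1 in limma), a fold of 1.38, and the gene ranked 194 of 20469 by p. Of the 6 L-DOPA arrays, 6 lay above the median of the others and 5 above their highest value. The exact permutation test over all divisions of the arrays gave p = 0.0108.

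The size of this difference rested in part on 6-OHDA replicate 2, where Gad1 had its lowest value. Without that array the log2 fold change became 0.20 in DOPA and 0.16 in DOPA/HFS, and in the L-DOPA comparison 0.32 (unadjusted p = 0.0294 in limma). The plain difference of the means of 6 arrays against 5 was 0.35 (exact permutation p = 0.0152). Without DOPA/HFS replicate 1, whose Trh signal was low, the limma value was 0.43 (unadjusted limma p = 0.041, and an exact permutation p of 0.0303). When single arrays were left out in turn, the exact permutation p ran from 0.00866 to 0.0303. With the outlier spots of all arrays kept, the unadjusted limma p was 0.0527.

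For Gad1 within slides, the DOPA array exceeded the 6-OHDA array by 0.31, 0.96 and 0.16 on slides 1 to 3. The DOPA/HFS array differed from the HFS array by 0.71, 0.73 and -0.11. Of these 6 within-slide differences 5 were above 0. With the slide as a block in the fit the L-DOPA difference was again 0.46 (unadjusted p = 0.0172).

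The other Gad1 probes gave differences of similar size. A_44_P115461 read 10.10, 9.62 and 10.01 on the 6-OHDA arrays against 10.24, 10.40 and 10.26 on the DOPA arrays, and 9.59, 9.78 and 10.21 in HFS against 10.50, 10.42 and 9.91 in DOPA/HFS. A_44_P243102 read 9.38, 8.84 and 9.27 against 9.61, 9.81 and 9.45, and 8.98, 8.95 and 9.37 against 9.77, 9.70 and 9.23. On both, the DOPA arrays again lay above the 6-OHDA arrays and DOPA/HFS replicate 3 was the low array of its group. In the L-DOPA comparison the difference was 0.40 on the first (unadjusted p = 0.0219, exact permutation p = 0.0195) and 0.46 on the second (unadjusted p = 0.00899, exact permutation p = 0.0108). Across the 12 arrays the probes correlated with each other at r = 0.905 to 0.967. They read the same transcript in the same RNA, so they check the measurement and not the difference between rats.

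The mean of the microglial markers, though not every marker, varied with Gad1 between arrays. The mean log2 signal of the 5 microglial markers was 10.36, 9.26 and 10.35 on the 6-OHDA arrays, 9.99 to 10.47 in HFS, 10.17 to 10.47 in DOPA and 10.26 to 10.58 in DOPA/HFS. All 5 markers were well above background on at least 11 of 12 arrays, and their summed signal ran from 14030 to 14950 in 6-OHDA, 12710 to 15550 in HFS, 12880 to 15530 in DOPA and 13400 to 17510 in DOPA/HFS. Over 12 arrays the mean of the list correlated with Gad1 at r = 0.808 (Spearman 0.643), and at r = 0.571 without 6-OHDA replicate 2, where the marker Itgam read 3.58. On that array Cx3cr1 (7.33) and Csf1r (9.95) also had their lowest values, whereas Aif1 (12.86) and C1qa (12.56) did not. The part of the microglial markers in the Gad1 result was not tested.

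**Figure D2:**
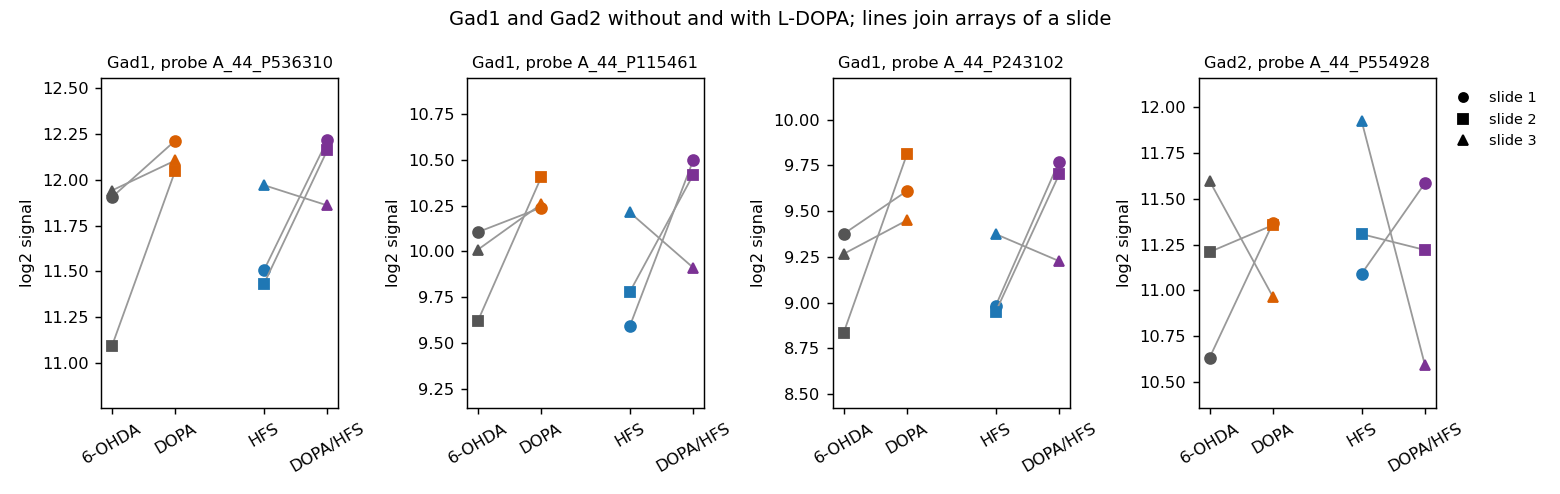
Log2 signal (vertical axes) of the 3 Gad1 probes and the Gad2 probe without and with L-DOPA, in unstimulated (left of each panel) and stimulated rats (right). Lines join arrays of the same slide. All 3 Gad1 probes climb on 5 of 6 lines, whereas Gad2 climbs on 3 and drops on 3.

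Gad2 gave no such difference. Its log2 signal was 10.63, 11.21 and 11.60 on the 6-OHDA arrays, 11.09, 11.31 and 11.92 on the HFS arrays, 11.37, 11.36 and 10.96 on the DOPA arrays and 11.59, 11.22 and 10.59 on the DOPA/HFS arrays. All groups overlapped, and the arrays were spread most widely in 6-OHDA and DOPA/HFS. In the L-DOPA comparison the difference was -0.11 (standard error 0.22, 95% interval -0.61 to 0.38, exact permutation p = 0.643). It was 0.29 in HFS (interval -0.40 to 0.99), 0.08 in DOPA (-0.61 to 0.78) and -0.01 in DOPA/HFS (-0.71 to 0.68). Within slides the DOPA array differed from the 6-OHDA array by 0.74, 0.15 and -0.63, so the slides had opposite signs.

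Whether L-DOPA shifted Gad1 differently from Gad2 was tested on the difference of their log2 signals in each array, a test added after the values were known. That difference was 0.57 larger on the L-DOPA arrays (6 against 6, exact permutation p = 0.0368), above the median of the others on 6 of 6 arrays and above their highest value on 0 of 6. Within slides it ran against this on slide 1 in unstimulated rats, at -0.43, beside 0.81 and 0.80 on slides 2 and 3, and it was 0.21, 0.82 and 1.22 in stimulated rats. Without 6-OHDA replicate 2 the difference over 6 against 5 arrays was 0.48 (exact permutation p = 0.0714), and the exact test no longer passed 0.05. The separation was 0.39 in DOPA vs 6-OHDA (exact permutation p = 0.5). It was 0.75 in DOPA/HFS vs HFS (exact permutation p = 0.1, the smallest possible), where all DOPA/HFS arrays exceeded all HFS arrays. How often other pairs of genes separate in this way was not computed. Gad2 varied with the projection neuron markers (r = 0.752) and with the oligodendrocyte markers (r = 0.755) over the 12 arrays, whereas for Gad1 these were 0.256 and 0.0874. The list means behind these correlations lacked Rgs9 and Mbp on DOPA/HFS replicate 3, where neither had a value and Gad2 was lowest. How far this moved the correlations was not tested. The 5 oligodendrocyte markers were all well above background on 12 arrays. Their mean log2 signal ran from 14.49 to 15.08, except on DOPA/HFS replicate 3, where it was 14.45 without Mbp. The part of these markers in the difference was not tested.

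Slc32a1, the vesicular GABA transporter that fills synaptic vesicles, hardly varied. Its log2 signal was 14.39, 14.35 and 14.70 on the 6-OHDA arrays, 14.42, 14.61 and 14.41 on the HFS arrays, 14.52, 14.61 and 14.19 on the DOPA arrays and 14.51, 14.31 and 14.69 on the DOPA/HFS arrays. Groups overlapped throughout and their means lay within 0.06 of each other. The 95% interval was -0.37 to 0.37 in HFS, -0.41 to 0.33 in DOPA and -0.35 to 0.39 in DOPA/HFS. In the comparisons of 6 arrays against 6 it was narrower, -0.23 to 0.29 for stimulation and -0.27 to 0.25 for L-DOPA. The spread of Slc32a1 between arrays of a group (residual SD 0.18) was lower than that of most genes, since 21.7% of genes had a lower one and the median gene had 0.27.

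Slc6a11 encodes GAT-3, the GABA carrier of astrocytes, and was dim on these arrays. It was well above background on 0 of 3 6-OHDA arrays, 2 HFS arrays, 1 DOPA array and 3 DOPA/HFS arrays. The log2 signal was 5.24, 3.16 and 5.15 in 6-OHDA, 4.96, 5.21 and 5.18 in HFS, 5.30, 5.38 and 5.14 in DOPA and 5.13, 5.08 and 5.76 in DOPA/HFS. A single array, 6-OHDA replicate 2, where the scanner software had put a surrogate value in place of the signal, lay far below the rest, and the groups overlapped. The 6-OHDA level is therefore uncertain, and so is every fold against it. Each 6-OHDA array was also given the higher of the probe's own signal and the lowest signal well above background on that array. On that footing the DOPA/HFS mean, measured on all its arrays, was 1.07-fold that of 6-OHDA. This is not a lower limit. On 6-OHDA replicate 1 the probe read 5.24, over that lowest signal (4.61), and was still not well above background. The fit put HFS at a log2 fold change of 0.60 (95% interval -0.38 to 1.59), DOPA at 0.76 (-0.23 to 1.75) and DOPA/HFS at 0.81 (-0.18 to 1.80, standard error 0.45 each, limma adjusted p of 0.998, 1 and 1). Without 6-OHDA replicate 2 they became -0.07, 0.08 and 0.13.

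Abat, the GABA transaminase that begins GABA breakdown, was the steadiest of the GABA genes, with a residual SD of 0.16 that 13.5% of genes undercut. Its log2 signal was 10.81, 10.73 and 11.08 on the 6-OHDA arrays, 10.81, 11.04 and 10.96 on the HFS arrays, 11.04, 10.98 and 10.70 on the DOPA arrays and 10.96, 10.81 and 11.09 on the DOPA/HFS arrays. The groups overlapped and their means spanned 0.08. The 95% interval was -0.28 to 0.40 in HFS, -0.30 to 0.37 in DOPA and -0.26 to 0.42 in DOPA/HFS. Over 6 arrays against 6 it was -0.19 to 0.29 for stimulation and -0.21 to 0.27 for L-DOPA.

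**Figure D3:**
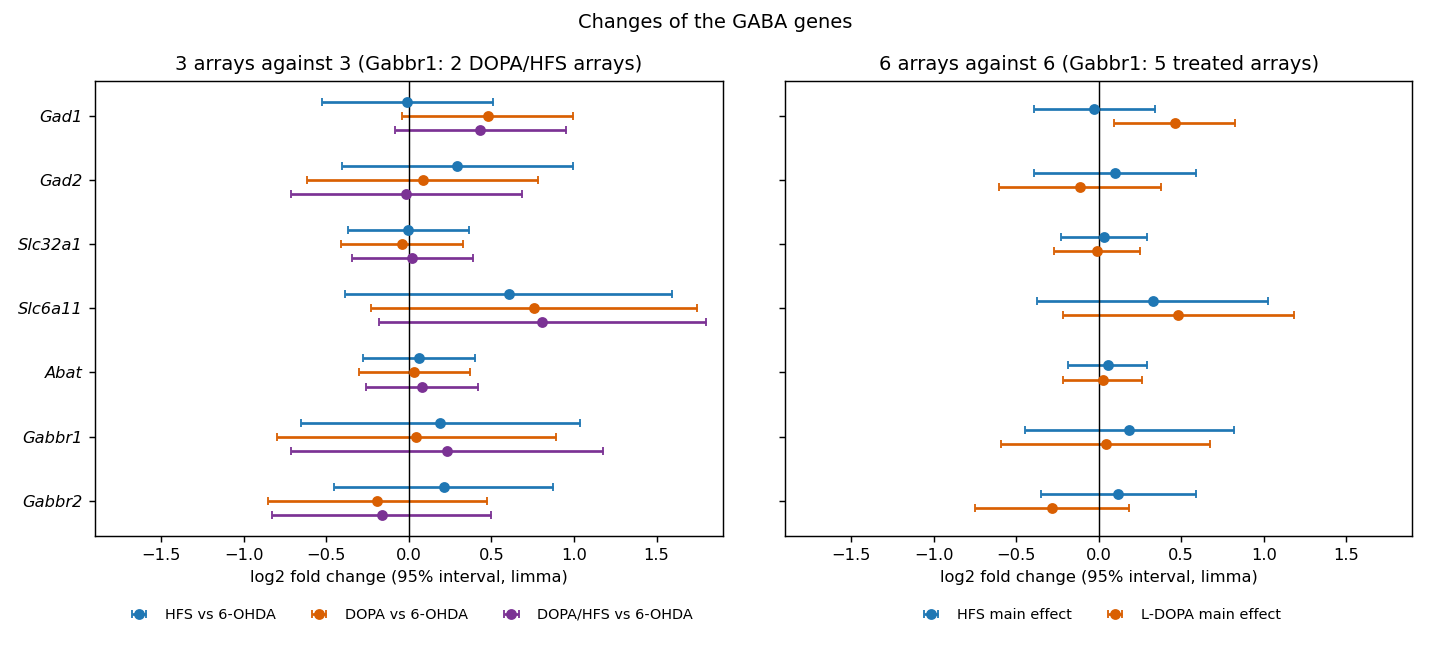
Log2 fold change of each GABA gene (horizontal axes) with its 95% interval from the limma fit (bars). The left panel sets each treated group against 6-OHDA, and the right panel sets 6 arrays against 6. Of all intervals shown, that of Gad1 in the L-DOPA comparison (0.09 to 0.83) alone lies off 0, and the narrowest belong to Slc32a1 and Abat.

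The GABA-B receptor is an obligate pair of the Gabbr1 subunit, which binds GABA, and the Gabbr2 subunit, which couples to the G protein. The bright Gabbr1 probe, A_44_P249164, printed in 10 spots, read 13.54, 12.65 and 13.98 on the 6-OHDA arrays, 13.08, 13.81 and 13.85 under HFS and 13.09, 13.46 and 13.75 under DOPA. In DOPA/HFS it read 14.09 and 13.15, while on replicate 3 the software marked all 10 spots as non-uniform outliers and no value was used. Groups overlapped, with 6-OHDA replicate 2 lowest of all. The log2 fold change was 0.19 in HFS (95% interval -0.65 to 1.03), 0.05 in DOPA (-0.80 to 0.89) and 0.23 in DOPA/HFS (-0.71 to 1.17, 3 arrays against 2). Without 6-OHDA replicate 2 these values turned to -0.18, -0.32 and -0.14. With the marked spots kept, DOPA/HFS replicate 3 would read 14.54.

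Within an array the log2 SD of the 10 spots was 0.03 to 0.09 on the 11 arrays used, and 0.44 on DOPA/HFS replicate 3, whereas the residual SD between arrays of a group was 0.53. The first is noise within a hybridisation, and the second holds rat, labelling and array together. The second Gabbr1 probe, A_43_P12481, which carries the accession of another transcript record of the gene, read 8.04, 6.46 and 8.31 in 6-OHDA, 8.18, 8.58 and 8.33 in HFS, 8.23, 8.92 and 8.04 in DOPA and 8.04, 8.33 and 8.51 in DOPA/HFS. Here too 6-OHDA replicate 2 was lowest and the groups overlapped. Its log2 fold changes were 0.76, 0.80 and 0.69 (standard error 0.41, unadjusted p of 0.0911, 0.0798 and 0.122 in limma) for HFS, DOPA and DOPA/HFS. They rested on that array, since without it they became 0.19 (95% interval -0.39 to 0.78), 0.22 (-0.36 to 0.81) and 0.12 (-0.47 to 0.70). The probes correlated at r = 0.529 over 11 arrays.

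Gabbr2 had its highest group mean in HFS. The log2 signal was 11.96, 11.42 and 11.91 on the 6-OHDA arrays, 11.31, 12.06 and 12.55 on the HFS arrays, 11.42, 11.29 and 12.00 on the DOPA arrays and 11.78, 11.58 and 11.44 on the DOPA/HFS arrays. HFS held both the highest array and, in replicate 1, nearly the lowest, and all groups overlapped. The log2 fold change was 0.21 in HFS (95% interval -0.45 to 0.87), -0.19 in DOPA (-0.85 to 0.47) and -0.16 in DOPA/HFS (-0.83 to 0.50). Without 6-OHDA replicate 2 these became 0.04, -0.36 and -0.34. In the L-DOPA comparison of 6 arrays against 6 the Gabbr2 difference was -0.28 (-0.75 to 0.18, exact permutation p = 0.227). It depended on the HFS arrays, being -0.45 without HFS replicate 1 (unadjusted p = 0.0287 in limma) and -0.14 without HFS replicate 3. Of 5 markers of cortex, 2 were measured, Slc17a7 and Neurod2, well above background on 10 and 12 arrays. Their mean log2 signal was 8.30, 6.09 and 7.17 in 6-OHDA, 5.91, 8.34 and 8.79 in HFS, 7.01, 6.99 and 8.73 in DOPA and 7.47, 7.41 and 7.48 in DOPA/HFS, and their summed signal ran from 248.1 to 727.3, 170.6 to 1114, 321.6 to 1052 and 411 to 442.2. Over the 12 arrays this mean went with Gabbr2 at r = 0.834 (Spearman 0.909, and r = 0.836 without 6-OHDA replicate 2), and with Gabbr1 at r = 0.671 over 11. Gabbr1 had a higher r over those 11 arrays with the means of the projection neuron (0.755), oligodendrocyte (0.741) and microglial markers (0.732). The part of any of these marker lists in the receptor values was not tested.

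When the 4 group means of each gene were put in order, neighbours in that order always overlapped in their arrays, and the exact permutation p of their differences ran from 0.3 to 1 over the 21 neighbouring pairs. The interaction, which asks whether stimulation acted differently with and without L-DOPA, had log2 values from -0.55 for Slc6a11 to 0.06 for Slc32a1. For Gad1 it was -0.03 (95% interval -0.77 to 0.70) and for Gad2 -0.39 (-1.38 to 0.59). Over the 7 genes, the median log2 fold change was 0.19 for HFS, 0.05 for DOPA and 0.08 for DOPA/HFS, beside medians over all genes of 0.01, -0.01 and -0.01. In the comparisons of 6 arrays against 6 it was 0.10 for stimulation and 0.03 for L-DOPA, beside 0.00 and -0.02 over all genes. All of these comparisons have 6-OHDA replicate 2 among their reference arrays, and that array was the lowest for 3 of the 7 genes. The medians without it were not computed.

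Pairs of GABA genes were correlated over the arrays, and each r was tested by 100000 permutations with Benjamini-Hochberg adjustment over the 21 pairs. Only 1 pair had an adjusted p under 0.05. Of the 21 pairs, Slc32a1 and Abat were closest, with r = 0.915 over the 12 arrays (Spearman 0.895, adjusted permutation p = 0.00105 for r). Each was the tested gene most like the other, among genes measured on every array. Their r was 0.925 without 6-OHDA replicate 2, 0.871 without the 2 arrays farthest from the median of Slc32a1 and 0.924 with slide means removed. The arrays share their processing, so this describes these 12 arrays. Gabbr1 and Gabbr2, which form 1 receptor, came next with r = 0.692 over 11 arrays (adjusted permutation p = 0.132, Spearman 0.673, and r = 0.546 with slide means removed). Gad1 and Slc6a11 had r = 0.679 (adjusted permutation p = 0.166), which rested on 6-OHDA replicate 2, since it was 0.0682 without it. Slc6a11 and Abat had r = 0.566 (adjusted permutation p = 0.132, Spearman 0.741, and r = 0.563 without that array). Gad1 and Gad2 had r = 0.162 (Spearman 0.406).

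**Figure D4:**
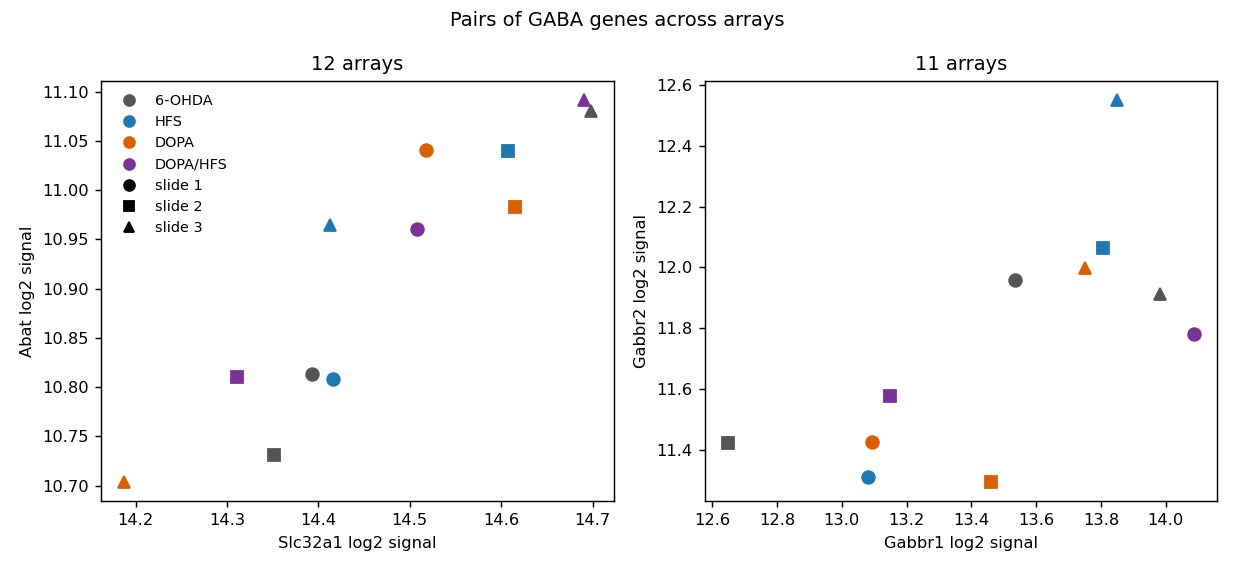
Log2 signal of Abat against Slc32a1 on 12 arrays (left) and of Gabbr2 against Gabbr1 on 11 arrays (right). Colours give the group and symbols the slide. The left points follow a line (r = 0.915) along which every group is spread, and the right points scatter more widely (r = 0.692).

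The genes whose pattern over the arrays was most like that of Gad1 were Becn1 (r = 0.96), Lamp5 (0.933) and RGD1561652_predicted (0.917). Those most like Gad2 were BF558804 (0.975), Lmo7 (0.961) and RGD1565486_predicted (0.933). For Gabbr1 they were AW919083, Glt25d1_predicted and Llgl1 (0.969, 0.969 and 0.96 over 11 arrays), and for Gabbr2 RGD1310066, Bbs4_predicted and TC553163 (0.953, 0.923 and 0.916). After Abat, Slc32a1 was most like LOC304361 (0.878) and Recql5_predicted (0.871), and after Slc32a1, Abat was most like AI045171 (0.893) and LOC686892 (0.889). Slc6a11 was most like RGD1565640_predicted, RGD1562406_predicted and RGD1565360_predicted (0.981, 0.964 and 0.956), with 6-OHDA replicate 2 far out for Slc6a11. The best of so many genes reaches a high r over so few arrays, and nothing about shared function is read from it.

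The rest of the pathway was read from a list of 17 genes that carry GABA or its precursors or act on them, and from 11 partners and effectors of the GABA-B receptor, of which 8 were matched on the array. In the list of 17, 0 were called in any comparison, and at an unadjusted p under 0.05 there were 0 in HFS, 0 in DOPA, 1 in DOPA/HFS (2.76% of all genes), 0 in the interaction, 2 in the stimulation comparison (4.34% of all genes) and 0 in the L-DOPA comparison, all of them higher. Of the 8 partners, 0 were called and 0 had an unadjusted p under 0.05 in any of the 6 comparisons. The median log2 fold change of the 17 was 0.06 for stimulation and 0.05 for L-DOPA over 6 arrays against 6, and that of the 8 was -0.02 and -0.06.

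Slc6a12 and Slc6a13, GABA carriers found in brain mainly outside synapses, had log2 differences in the L-DOPA comparison of -0.19 (95% interval -0.92 to 0.54) and 0.23 (-0.16 to 0.62). For Aldh5a1, the mitochondrial dehydrogenase that follows Abat in GABA breakdown, it was -0.05 (-0.33 to 0.23).

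Slc38a5, a carrier of glutamine and related amino acids, was among the genes with an unadjusted p under 0.05. It read 6.21, 5.92 and 5.99 in 6-OHDA, 6.30, 7.0 and 6.11 in HFS, 6.11, 5.91 and 5.80 in DOPA and 7.18, 6.38 and 6.61 in DOPA/HFS, where all 3 arrays lay above all 6-OHDA arrays, a group pair in which 4.19% of all genes did not overlap. The difference was 0.69 in DOPA/HFS (unadjusted p = 0.0207) and 0.61 in the stimulation comparison (95% interval 0.21 to 1.01, unadjusted p = 0.00601, adjusted p = 0.911 in limma). Maob, a monoamine oxidase of astrocytes that also takes part in making GABA from putrescine, differed by 0.41 in the stimulation comparison (0.03 to 0.79, unadjusted p = 0.036, adjusted p = 0.911). It read 9.61, 9.92 and 9.88 in 6-OHDA and 10.19, 10.60 and 10.20 in HFS without overlap (5.14% of all genes), and 9.64, 9.76 and 9.59 in DOPA and 10.53, 9.92 and 9.43 in DOPA/HFS. The part of the choroid plexus signal, given above for each group, in these values was not tested.

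**Figure D5:**
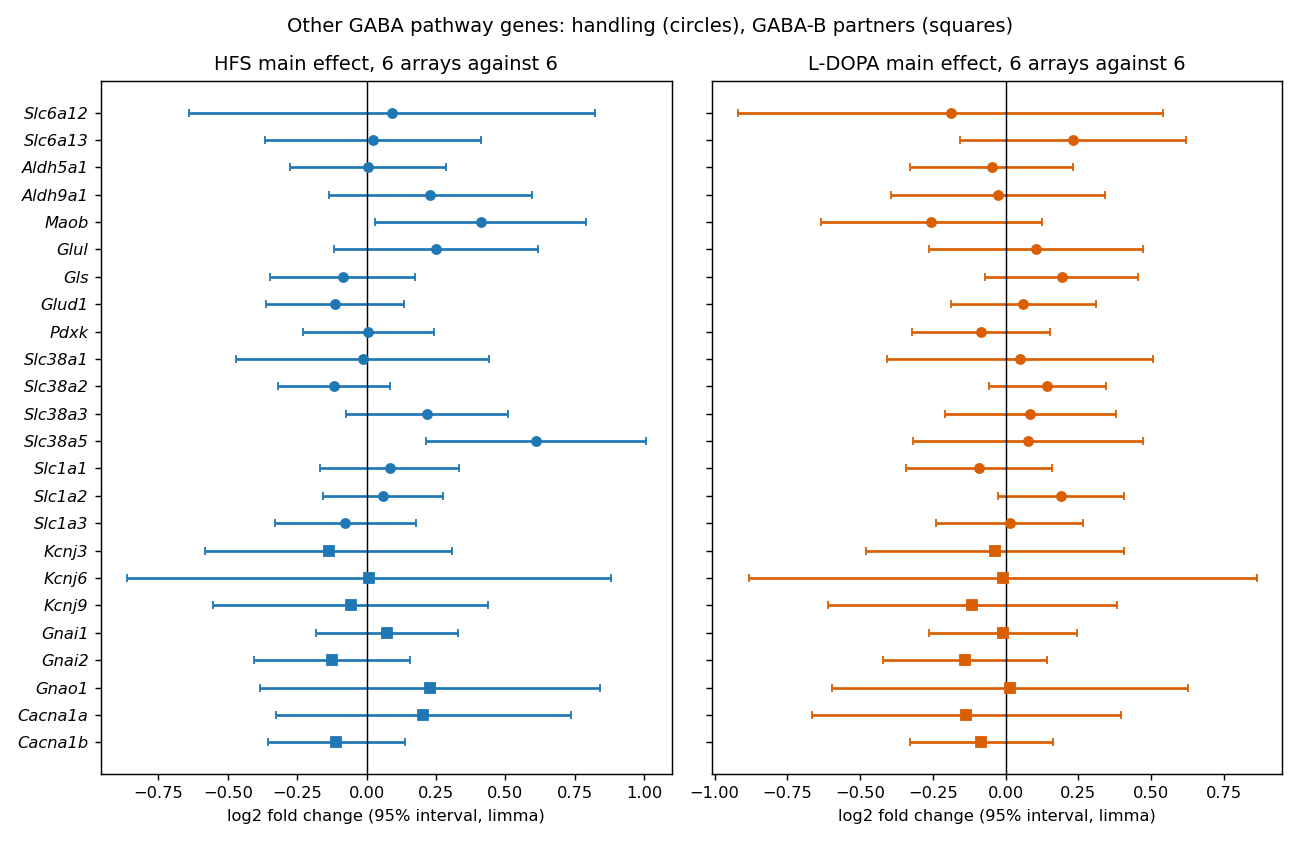
Log2 fold change (horizontal axes, bars give the 95% interval from limma) of other measured GABA pathway genes for stimulation (left) and L-DOPA (right), 6 arrays against 6. Circles are handling genes and squares the 8 GABA-B partners. On the left the intervals of Maob and Slc38a5 lie above 0, and on the right every interval spans 0.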

How the data were processed

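Striatal RNA of 12 lesioned rats, 3 per group by the sample labels, had been labelled with Cy3 and hybridised to 1 array each. The authors deposited scanner files in which Agilent Feature Extraction (version 9.1 in the submitters' processing notes) gives each spot an intensity on a linear scale with the background subtracted, not normalized between arrays. A second file deposited by the authors holds log2 values after their quantile normalization and served as an alternative.

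Control spots and spots marked as outliers were left out. Intensities were taken to log2, quantile normalized and averaged over the spots of a probe. Probes well above background on at least 5 of 12 arrays were kept, and the brightest probe stood for a gene. Of 41012 probes, 10735 were named through the RefSeq gene table of GRCr8, and the others kept the names in the files. A linear model over the 12 arrays was fitted by lmFit and eBayes of limma (3.58.1; R 4.3.3; files read by jsonlite 2.0.0 and the data.table package, 1.17.8), and p-values were adjusted by Benjamini-Hochberg over the 20469 genes tested. Exact two-sided permutation tests used arrays as units. The number of arrays limits the precision. The limma p-values set a difference against the spread between arrays of a group, pooled over the 4 groups. That spread holds rat, labelling and array together. The fits were tested on simulated data.

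The 7 genes, the pathway and marker lists and the tests were chosen with earlier results of these data known. Genes named are the 7, Slc6a12, Slc6a13, Aldh5a1, other pathway genes with an unadjusted p under 0.05, marker genes and, per gene, the 3 most like it over the arrays. Trh was named in addition, after its values were seen. 1 gene that the rule names, beyond these, is not reported here. Alternatives were another scaling, a normexp background correction, the deposited log2 table, no filter, the mean of all probes, each probe alone, a replicate block, only the groups compared, calls at 0.05 or without the fold rule and leaving out each array. Keeping outlier spots, and leaving 6-OHDA replicate 2 out of the fit of the second Gabbr1 probe, were added after seeing the data.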

Additional observations from a re-analysis of the deposited data

How the results depend on the processing

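Of 885 values of the 42 GABA gene results under the alternatives, 782 kept their direction and 103 turned it. No gene was called under any of them (limma adjusted p from 0.558 to 1). Slc6a11 in HFS went from 0.60 to -0.074 and its interaction from -0.55 to 0.13 without 6-OHDA replicate 2. The cause of the turns was not tested. The positive L-DOPA difference of Gad1 was kept under all alternatives tried, from 0.32 without 6-OHDA replicate 2 to 0.54 without HFS replicate 3.

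With the deposited log2 table the turned values were Gad1 0.0097 and Slc32a1 3.9e-05 in HFS, Abat -0.091 in DOPA, -0.0041 in DOPA/HFS and -0.070 for L-DOPA, and Abat 0.041 and Gabbr1 0.042 in the interaction. With normexp they were Gad1 0.021 in HFS, Abat -0.089 in DOPA and -0.013 for L-DOPA, and Abat 0.15 and Gabbr1 0.026 in the interaction. With outlier spots kept, an alternative added after seeing the data, they were Abat -0.027 and Slc32a1 -0.048 in DOPA/HFS, Abat -0.028 for L-DOPA, Slc32a1 -0.0040 for stimulation, and Gabbr1 0.29 and Slc32a1 -0.0039 in the interaction. With 75th percentile scaling they were Slc32a1 -0.030 in DOPA/HFS, -0.048 for stimulation and 0.018 for L-DOPA, and Abat 0.0025 in the interaction. The probe A_44_P115461 alone turned the Gad1 interaction to 0.025.

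The number of the 7 genes with an unadjusted limma p under 0.05 was 1 in DOPA with 75th percentile scaling (2.58% of all genes) and 0 for L-DOPA with outlier spots kept (2.6%). Leaving out single arrays gave 0 to 2 in DOPA and 0 to 2 in DOPA/HFS (2 without 6-OHDA replicate 3 in both, beside 4.38% and 6.45% of all genes, and 2 and 1 without 6-OHDA replicate 1, beside 4.19% and 4.53%), and 1 to 2 for L-DOPA (Gad1 and Gabbr2 without HFS replicate 1, beside 3.06%).

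Leaving out single arrays turned these. In HFS the range was -0.0095 to 0.17 for Abat, -0.18 to 0.49 for Gabbr1, -0.076 to 0.54 for Gabbr2, -0.29 to 0.14 for Gad1, -0.067 to 0.11 for Slc32a1 and -0.074 to 0.97 for Slc6a11. In DOPA it was -0.037 to 0.14 for Abat, -0.32 to 0.34 for Gabbr1, -0.17 to 0.31 for Gad2 and -0.13 to 0.085 for Slc32a1. In DOPA/HFS it was -0.24 to 0.70 for Gabbr1, -0.27 to 0.26 for Gad2 and -0.072 to 0.13 for Slc32a1. In the interaction it was -0.12 to 0.054 for Abat, -0.48 to 0.46 for Gabbr1, -0.52 to 0.10 for Gabbr2, -0.18 to 0.24 for Gad1, -0.061 to 0.16 for Slc32a1 and -0.92 to 0.13 for Slc6a11. For stimulation it was -0.048 to 0.42 for Gabbr1, -0.025 to 0.29 for Gabbr2, -0.17 to 0.047 for Gad1, -0.030 to 0.23 for Gad2, -0.033 to 0.085 for Slc32a1 and -0.012 to 0.51 for Slc6a11. For L-DOPA it was -0.010 to 0.077 for Abat, -0.19 to 0.28 for Gabbr1, -0.24 to 0.023 for Gad2 and -0.055 to 0.055 for Slc32a1.

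The replicate number marks a shared slide and not a shared animal. Deviations of same-numbered arrays from their group means correlated at -0.287 to 0.476 (median 0.112, over 0.1 in 10 of 18 pairs). Pairs with different numbers ran from -0.447 to 0.543 (median -0.0691, over 0.1 in 7 of 36 pairs). Of the 12 arrays, 5 correlated best with their own number. The replicate block left 0 of the 7 genes called, gave Gad1 0.46 for L-DOPA and turned the Gabbr1 interaction to 0.19. Signal over background limits Slc6a11, which was well above background on 6 of 12 arrays.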
